A study of Mus musculus with 16 samples.

Results

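A set of 10 genes of T lymphocytes and natural killer (NK) cells was followed through sorted cells of the mouse testis: Cd3g, Ifng, Cd2, Gzmb, Il2rb, Cd96, Ctla4, Icos, Ctsw and Ms4a4b. They are 10 of the 13100 genes with a number in every library, and each was found by its symbol. The group was chosen by measured values: it was put together after Cd3g and Ifng had been seen to be higher in Tex10-deficient than in wild-type spermatogonia libraries. For the 10 genes, the values of these 4 libraries are given as a description, with no test. Tests of other genes between genotypes in spermatogonia used the same 4 libraries and are not independent of the choice. The comparisons between genotypes in the other cell types used libraries that the choice did not.

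RNA was sequenced from spermatogonia, MI spermatocytes, MII spermatocytes and spermatids sorted from testes of C57BL/6J males aged 8 weeks, with 2 polyA-enriched bulk libraries for each cell type and genotype (16 libraries). The genotypes were wild type (WT) and Tex10f/-; Stra8iCre, in which 1 Tex10 copy is floxed and the other null, and Cre recombinase is made under the Stra8 promoter, active in germ cells from the spermatogonia on. Lymphocytes of these mice keep the floxed allele unless the recombinase acts in them, and they carry the null allele in any case. The sources used here give neither the sort gates, nor the number of animals behind a library, nor whether the wild-type mice carried the Cre.

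T and NK lymphocytes are white blood cells that recognise and kill infected or altered cells and direct other immune cells. A T cell reads antigen through its receptor and the attached CD3 chains, needs a second signal from costimulatory receptors, and is held back by inhibitory receptors. Cytotoxic T and NK cells release granzymes and secrete interferon gamma. In the healthy testis macrophages are the main immune cells, lymphocytes are few and lie in the tissue between the tubules, and germ cells are not known for the full set of these genes.

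In the 16 libraries, 10044 to 12394 genes reached 1 FPKM (fragments scaled by transcript length and library size), and read numbers are unknown. Tex10 was lower in each Tex10-deficient group than in the wild type of the same cell type, at 21.1% to 37.4% of its mean. Titles were used to assign cell types, because in 6 of the 8 Tex10-deficient libraries the title and the separate cell type entry contradict each other. Dmrt1, a transcription factor of spermatogonia, was at 36.2 FPKM or more in the 4 libraries titled spermatogonia and at 7.69 or less in the 12 others. Tnp1, which packs spermatid chromatin, was at 1188 FPKM or more in the 4 spermatid libraries and at 152 or less elsewhere. The 4 MII libraries held Insl3, a hormone of Leydig cells, at 463 to 979 FPKM, against at most 108 in any other library. It is not stated whether the 2 libraries of a group derive from different animals, and the p-values below rest on a spread between libraries that may be technical.

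The promoters of 4 of the genes are shown because these genes fall on both sides of the main pattern: Cd3g and Ifng were found in spermatogonia libraries and hardly at all in others, whereas Ctla4 and Cd96 were also found in spermatids. Each sequence runs from 250 bases before to 50 bases after the RefSeq start site (GRCm38.p6) and is read 5′ to 3′ on the strand of the gene. Capitals mark any of 5 motif cores on either strand: the TATA box core TATAAA, the RUNX core TGTGGT, the ETS core GGAAGT, the NFAT core GGAAAA, and TGACGT from the cyclic AMP response element.
Cd3g, chr9:44980382-44980681, minus strand: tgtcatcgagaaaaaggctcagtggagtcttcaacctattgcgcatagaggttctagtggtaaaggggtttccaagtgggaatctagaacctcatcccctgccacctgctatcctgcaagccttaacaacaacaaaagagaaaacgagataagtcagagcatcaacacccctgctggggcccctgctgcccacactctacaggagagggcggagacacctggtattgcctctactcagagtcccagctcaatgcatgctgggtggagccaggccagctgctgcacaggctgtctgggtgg
Ifng, chr10:118440796-118441095, plus strand: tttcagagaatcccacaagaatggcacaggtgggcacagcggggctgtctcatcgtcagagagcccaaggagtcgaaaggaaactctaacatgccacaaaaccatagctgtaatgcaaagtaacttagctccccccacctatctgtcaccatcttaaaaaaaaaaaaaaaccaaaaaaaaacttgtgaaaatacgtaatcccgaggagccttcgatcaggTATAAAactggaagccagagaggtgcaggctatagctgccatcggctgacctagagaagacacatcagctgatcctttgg
Ctla4, chr1:60908775-60909074, plus strand: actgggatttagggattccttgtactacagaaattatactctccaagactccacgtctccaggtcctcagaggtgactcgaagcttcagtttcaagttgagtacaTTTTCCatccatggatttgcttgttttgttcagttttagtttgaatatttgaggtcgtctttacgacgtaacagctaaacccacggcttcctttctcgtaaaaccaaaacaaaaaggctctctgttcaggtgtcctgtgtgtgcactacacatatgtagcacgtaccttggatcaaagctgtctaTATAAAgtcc
Cd96, chr16:46120199-46120498, minus strand: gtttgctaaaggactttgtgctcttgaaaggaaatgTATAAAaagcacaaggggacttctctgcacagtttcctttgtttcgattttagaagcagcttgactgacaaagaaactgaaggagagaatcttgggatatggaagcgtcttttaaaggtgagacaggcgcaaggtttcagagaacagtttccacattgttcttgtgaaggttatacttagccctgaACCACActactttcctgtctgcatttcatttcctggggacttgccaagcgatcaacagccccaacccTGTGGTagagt

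Ifng carried TATAAA at position −30 from the start site. Ctla4 carried it at 41 and the NFAT core, as TTTTCC, at −145. Cd96 carried TATAAA at −214 and the RUNX core at −28, as ACCACA, and at 40. The Cd3g window held none of the 5 cores. Of 32851 mouse promoters of this length, 13.62% held TATAAA, 16.76% the RUNX core, 23.77% the ETS core, 23.36% the NFAT core and 7.51% the TGACGT core, so that such matches are common letters and not shown to be binding sites. Promoter sequences were at hand for 6 of the 10 genes, the other two being those of Gzmb and Ms4a4b.

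The 10 genes lie on 8 chromosomes (mm10, GENCODE M21). Ctla4 (XLOC_000156, chromosome 1, 60887000 to 60915832) and Icos (XLOC_000157, chromosome 1, 60977927 to 61000320) are neighbours on the plus strand, 62095 bases apart. Cd3g (XLOC_022574) spans 44969572 to 44980431 of chromosome 9 and Ifng (XLOC_001810) 118441046 to 118445892 of chromosome 10. Cd96 (XLOC_008348) spans 46035657 to 46120251 of chromosome 16. Ctsw (XLOC_010689, chromosome 19, 5465043 to 5468507) overlaps Fibp on the other strand. Whether the authors' counting used strand is not given, so reads of Ctsw and Fibp may not have been told apart. Ctla4 overlaps the pseudogene Rpl18-ps1, Icos overlaps Gm37039 and Ifng overlaps Gm49751, each on the same strand. These 3 have no row of their own among the measured genes, and whether their reads entered the values was not tested. The Ctla4 promoter window shown above lies inside the span given for the gene, so another start site is annotated before it.

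In spermatogonia libraries all 10 genes had a higher mean in the Tex10-deficient than in the wild-type group, by 1.91 to 7.33 times (median 3.32). This is the contrast that chose them. Both Tex10-deficient libraries were above both wild-type libraries for 9 of the 10 genes, beside 16.9% of the 13099 genes tested, and nothing is read from that count. The median log2 difference of the 10 genes was 1.51, beside −0.01 for all genes tested, of which 0.0153% were called higher. Calls here and below are limma tests with an adjusted p (Benjamini-Hochberg) under 0.05. In bulk libraries, fewer cells of a type and less RNA per cell cannot be told apart.

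Cd3g, the gamma chain of the CD3 complex that carries the signal of the T cell receptor, was at 4.53 and 2.28 FPKM in the wild-type spermatogonia libraries and at 21.6 and 17.6 FPKM in the Tex10-deficient ones. Ifng, which encodes interferon gamma, was at 0.687 and 0.939 FPKM in wild type and at 7.17 and 4.75 FPKM in Tex10 deficiency. These were the largest ratios of the 10, at 5.75 and 7.33, and the groups lay far apart. Cd2, an adhesion receptor that helps T and NK cells hold their targets, was at 6.05 and 1.76 FPKM in wild type and at 14.95 and 9.16 FPKM in Tex10 deficiency.

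Gzmb, the granule protease granzyme B, was at 14.6 and 2.88 FPKM in wild type and at 18.1 and 15.4 FPKM in Tex10 deficiency. It had the smallest ratio, 1.91, and the first wild-type library came within 1 FPKM of the lower Tex10-deficient one. Ctsw, cathepsin W, a protease of cytotoxic lymphocytes, was at 4.42 and 1.14 FPKM in wild type and at 11.5 and 7.76 FPKM in Tex10 deficiency. Il2rb, the beta chain shared by the receptors for interleukin 2 and interleukin 15, was at 25.5 and 6.92 FPKM in wild type and at 48.8 and 22.5 FPKM in Tex10 deficiency. It was the 1 gene whose groups overlapped.

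Icos, a costimulatory receptor of activated T cells, was at 9.90 and 1.75 FPKM in wild type and at 21.5 and 16.8 FPKM in Tex10 deficiency. Ctla4, the inhibitory receptor that competes with CD28 for the same ligands, was at 1.37 and 0.473 FPKM in wild type and at 5.15 and 2.03 FPKM in Tex10 deficiency. Both neighbours on chromosome 1 were thus present in these libraries, and Icos was the higher of the pair in each of the 4. Cd96, an adhesion and regulatory receptor of T and NK cells, was at 2.85 and 0.997 FPKM in wild type and at 7.95 and 4.70 FPKM in Tex10 deficiency. Ms4a4b, a membrane-spanning protein of T cells, was at 3.29 and 3.44 FPKM in wild type and at 10.3 and 12.3 FPKM in Tex10 deficiency.

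The pairs of libraries differed among themselves. The first wild-type spermatogonia library was above the second for 8 of the 10 genes, and the first Tex10-deficient one above the second for 9 of the 10. The summed level of the 10 genes was 73.2 and 22.6 FPKM in wild type and 167 and 113 FPKM in Tex10 deficiency. Without the first wild-type library the median log2 difference was 2.15, and without the second it was 0.88.

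**Figure D1:**
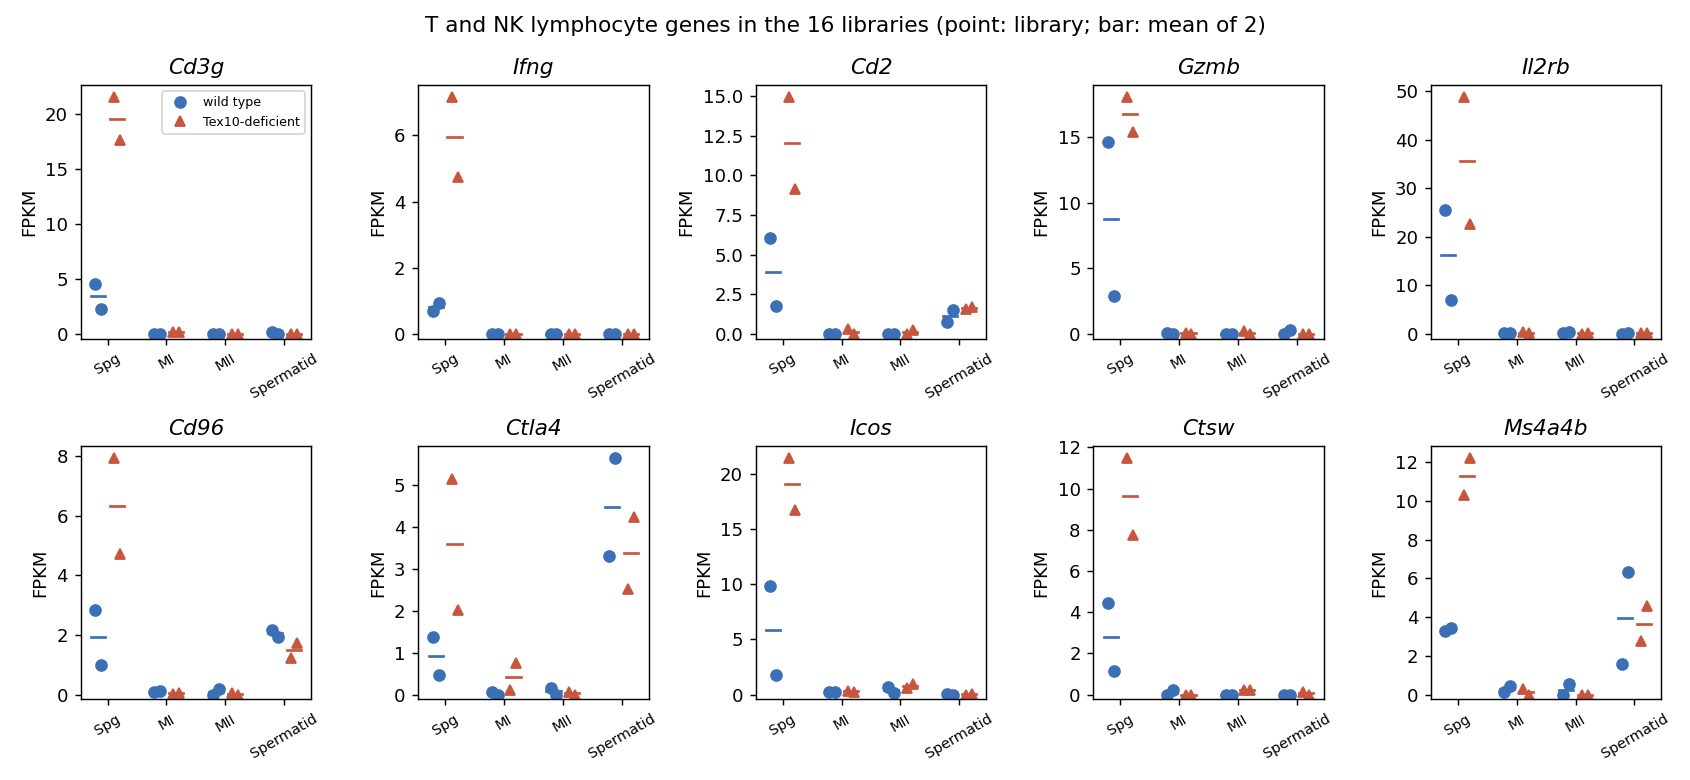
Level of each of the 10 genes (vertical axes, FPKM, linear from 0 and scaled per gene) in spermatogonia (Spg), MI, MII and spermatid libraries; circles are wild-type and triangles Tex10-deficient libraries, and bars are means of 2. All 10 genes are low in MI and MII libraries, and Cd2, Cd96, Ctla4 and Ms4a4b are above them in the spermatid libraries of both genotypes.

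Other genes of T and NK cells were taken from 7 lists of receptor chains, signalling proteins, surface receptors, costimulatory receptors, cytotoxic proteins, transcription factors and cytokines. Of 111 genes listed, 47 were in the table. In the spermatogonia contrast limma called 0 of the 47 and 28 had an unadjusted p under 0.05, beside 6.60% of all genes. Both Tex10-deficient libraries were above both wild-type ones for 31 of the 47 and below for 6. Among the 13099 genes tested these numbers were 2211 and 2561. The median log2 difference of the 47 was 0.95. The counts come from the libraries that chose the set followed here, and the lists were made with earlier results known. They are not independent of that choice, and nothing is read from them. Thy1, a surface protein of T cells, had the largest log2 difference of the 47 (2.16, SE 0.36, limma adjusted p = 0.0749). It was at 5.15 and 2.26 FPKM in wild type and at 27.6 and 12.9 FPKM in Tex10 deficiency. Of the 9 genes in its list, the surface receptors, the mean in Tex10 deficiency was higher for 6 and lower for 3. These 3 were Cd27, Cd7 and S1pr1, at 0.35, 0.52 and 0.73 times the wild-type mean, each with overlapping groups.

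The CD3 chains did not share 1 pattern. Cd3e, the epsilon chain that pairs with the gamma chain, was at 40.8 and 12.1 FPKM in wild type and at 19.6 and 37.0 FPKM in Tex10 deficiency, and its groups overlapped. Its log2 difference was 0.26 (SE 0.44, limma adjusted p = 1), where that of Cd3g was 2.27. Cd247, the zeta chain, was at 13.2 and 17.1 against 21.6 and 19.8 FPKM (0.44, SE 0.33, limma adjusted p = 0.95). Havcr2, the inhibitory receptor TIM-3, which macrophages also carry, was at 6.02 and 4.59 FPKM in wild type and lower in Tex10 deficiency, at 1.81 and 0.824 FPKM (−1.47, SE 0.31, limma adjusted p = 0.135).

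Other leukocyte genes moved with the 10 genes in part. Of 14 pan-leukocyte genes, 11 were in the table, and all of these 11 had a higher mean in Tex10-deficient spermatogonia, with a median log2 difference of 1.003. Their summed level was 219 and 157 FPKM in wild type and 477 and 342 FPKM in Tex10 deficiency. Of 21 myeloid genes, 17 were in the table, with 7 higher, 10 lower and a median of −0.17, and their sum was 384 and 685 FPKM in wild type against 401 and 287 FPKM. Of 14 B cell genes only Pax5 and Jchain were in the table, and both had a higher mean in Tex10 deficiency. Jchain had a mean of 2.24 FPKM in wild type and 5.70 FPKM in Tex10 deficiency, with both Tex10-deficient libraries above both wild-type ones. Pax5 had means of 0.771 and 1.05 FPKM, its groups overlapped, and it was listed at 0 in the second Tex10-deficient library. The part of leukocyte content in the differences of the 10 genes was not tested.

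To see the 10 genes against the general leukocyte level, each was divided by Ptprc (CD45, the surface phosphatase of all leukocytes) within the same library, a choice made after the values were seen. Ptprc itself was at 16.95 and 13.2 FPKM in wild-type and at 34.8 and 28.7 FPKM in Tex10-deficient spermatogonia. Cd3g was at 26.7% and 17.2% of the Ptprc level in wild type and at 62.1% and 61.2% in Tex10 deficiency. Ifng was at 4.05% and 7.08% in wild type and at 20.6% and 16.5% in Tex10 deficiency. With Ctsw and Ms4a4b these were the 4 genes of the 10 for which both Tex10-deficient ratios were above both wild-type ratios, beside 1.98% of all genes. The ratios come from the libraries that chose the genes, and nothing is read from that count.

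For the 6 other genes the ratios of the genotypes overlapped. Gzmb was at 86.4% and 21.75% of Ptprc in wild type and at 52.0% and 53.6% in Tex10 deficiency. Il2rb was at 150% and 52.3% in wild type and at 140% and 78.4% in Tex10 deficiency. In both cases the 2 wild-type libraries enclosed the Tex10-deficient ones. Csf1r, the growth factor receptor of macrophages, lay the other way, at 89.9% and 265% in wild type and at 42.4% and 41.9% in Tex10 deficiency.

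**Figure D2:**
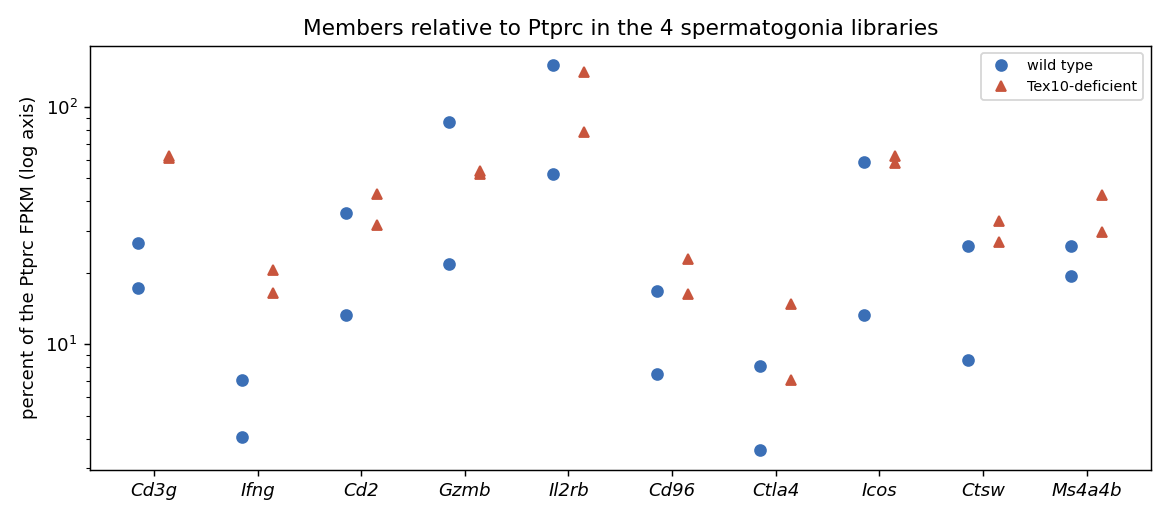
Level of each of the 10 genes as a percent of the Ptprc level in the same library (vertical axis, log scale) in the 4 spermatogonia libraries, circles wild type and triangles Tex10-deficient. The genotypes are apart for Cd3g, Ifng, Ctsw and Ms4a4b and overlap for the 6 others.

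In MI and MII spermatocyte libraries all 10 genes were under 1 FPKM in each of the 8 libraries, a state shared by 1.15% of all genes tested. A gene low in every cell type was not tested, so genes in this state had to reach the required level in spermatogonia or spermatid libraries. For 6 of the 10 it was reached only through spermatogonia libraries, which chose the genes, and nothing is read from that share. Ifng was listed at 0 in 8 of 8. Cd3g was listed at 0 in 6 of 8, the exceptions being the Tex10-deficient MI libraries at 0.168 and 0.142 FPKM. The highest value of any of the 10 genes was that of Icos in the second Tex10-deficient MII library, 0.953 FPKM. From MI to MII limma called 0 of the 10 in either genotype (0 with an unadjusted p under 0.05), beside 57.2% of all genes in the wild type and 61.7% in Tex10 deficiency. With every value under 1 FPKM a call was hardly possible, so nothing is read from that count. Levels this low do not show whether a gene is off, since a failed estimate can also be listed at 0.

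From wild-type spermatogonia to wild-type MI spermatocytes, limma called 9 of the 10 genes lower, beside 25.7% of all genes, and the exception was Ctla4 (log2 difference −0.86, SE 0.39, adjusted p = 0.0805). In wild-type MII against wild-type spermatogonia the count was again 9, beside 17.4% of all genes, again without Ctla4 (−0.79, SE 0.39, limma adjusted p = 0.113). Both comparisons share the wild-type spermatogonia libraries with the contrast that chose the genes. Moreover, 6 of the 10 genes reached the level required for testing only through spermatogonia libraries, so the counts describe where these genes were found and are no independent support.

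With all libraries in the fit, the sizes of these differences are given here without p-values for the same reason. The p-values below only mark calls that were lost when a library was left out. From wild-type spermatogonia to wild-type MII libraries the log2 level differed by −3.46 (SE 0.47) for Il2rb, −2.96 (SE 0.46) for Gzmb, −2.09 (SE 0.28) for Cd3g and −0.86 (SE 0.24) for Ifng. All 10 genes had both MII libraries below both spermatogonia libraries, as did 30.6% of all genes. The first wild-type spermatogonia library carried much of several of these values: without it the MII difference was −1.96 for Gzmb, −0.98 for Icos in place of −1.97, −1.09 for Ctsw in place of −1.77, and −0.87 for Cd96 in place of −1.35. Without that library the count was 8 in both comparisons, since Cd96 was not called (limma adjusted p = 0.0553 in MI and 0.0583 in MII). Without the second one the MII difference of Icos was −2.97 and the MII count was 8, since Ifng was not called (limma adjusted p = 0.0554).

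The near absence of the 10 genes from MII libraries stood beside abundant transcripts of other testis cells. Of the 17 myeloid genes limma called 0 lower and 1 higher in wild-type MII against wild-type spermatogonia (unadjusted p under 0.05 for 2), with a median log2 difference of 0.39. The one called was Aif1, a calcium-binding protein of macrophages that was also abundant in spermatids, at 270 and 208 FPKM in wild type. Lyz2, the macrophage lysozyme, was at 78.2 and 125 FPKM in wild-type MII and at 76.3 and 75.0 FPKM in wild-type spermatogonia libraries. All 8 Leydig cell genes were called higher in MII. Of the 47 other T and NK genes, 29 were called lower and 3 higher, with a median of −1.36. Among all genes tested, 17.4% were called lower and 29.8% higher. The counts of these lists share the wild-type spermatogonia libraries with the contrast that chose the 10 genes.

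The lists differed within themselves in this comparison. Of the 2 CD3-complex genes in the table, Cd3e was at 0.200 and 0.456 FPKM in wild-type MII, against 40.8 and 12.1 FPKM in wild-type spermatogonia. Cd247 remained at 8.54 and 9.35 FPKM, against 13.2 and 17.1 FPKM, and was not called (log2 difference −0.69, SE 0.33, limma adjusted p = 0.0961). Of 7 genes of T cell receptor signalling 5 were called lower. The other two, Fyn and Prkcq, both kinases, had higher means in MII and were not called, with Fyn at 11.1 and 11.4 FPKM against 6.59 and 5.52 FPKM (0.80, SE 0.45, limma adjusted p = 0.159). Of 12 cytokine and chemokine genes 9 were called lower, and of 10 transcription factors 4 lower and 2 higher. The 3 genes called higher over the 7 lists were Serpinb9, an inhibitor of granzyme B that many cells make to protect themselves, Id2 and Stat4. Of 11 pan-leukocyte genes, 9 were called lower, Ptprc among them (−1.68, SE 0.36, limma adjusted p = 0.00176), and Arhgdib was called higher (2.24, SE 0.47, adjusted p = 0.00149).

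**Figure D3:**
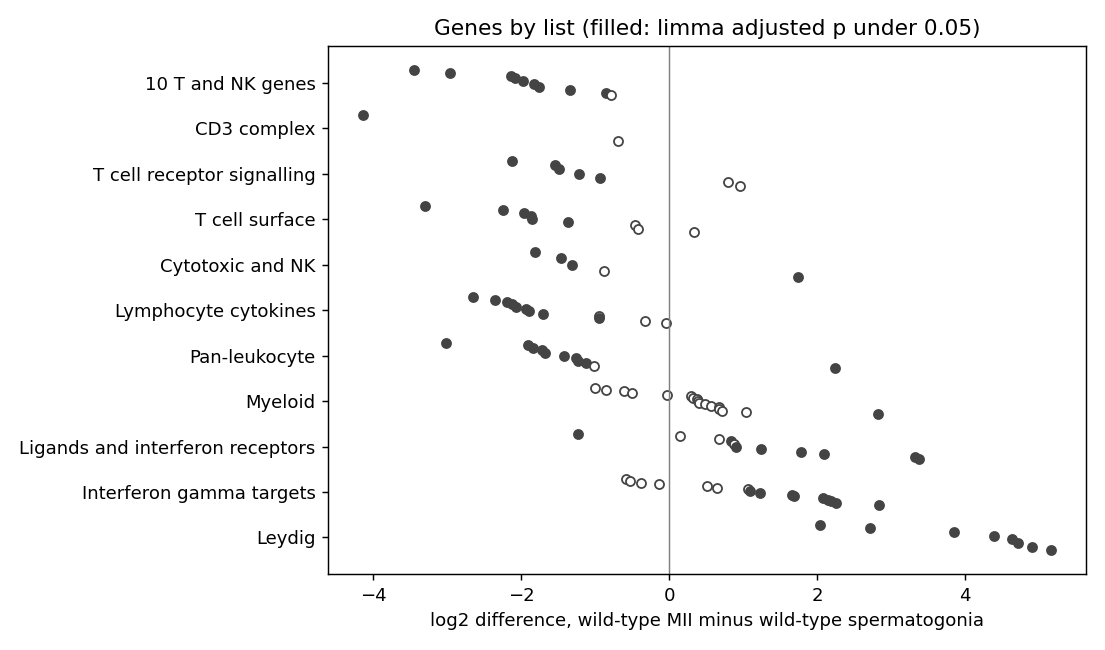
Log2 difference, wild-type MII minus wild-type spermatogonia, of each gene (point) in 11 lists (rows); filled points were called by limma at an adjusted p under 0.05. The 10 T and NK genes and most pan-leukocyte genes lie left of 0, the myeloid genes lie around it and the 8 Leydig cell genes lie to the right.

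The ligands and receptors that the 10 genes act with were more often higher in MII libraries. Of 11 such genes in the table, limma called 7 higher and 1 lower in wild-type MII against wild-type spermatogonia, where 29.8% of all genes were called higher. Icosl, the ligand of ICOS, was at 77.6 and 36.9 FPKM in wild-type MII and at 3.80 and 4.77 FPKM in wild-type spermatogonia (log2 difference 3.38, SE 0.49, limma adjusted p = 0.00011). Il15ra, which presents interleukin 15 to Il2rb, was at 21.6 and 20.4 against 0.424 and 2.36 FPKM (3.33, SE 0.50, limma adjusted p = 0.000135). Pvr, a ligand of CD96, was higher by 1.79 (SE 0.38, limma adjusted p = 0.00178). Cd48, the ligand of mouse CD2 and itself a leukocyte surface protein, was the 1 called lower (−1.23, SE 0.44, limma adjusted p = 0.0337).

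The genes that interferon gamma is known to induce did not share 1 pattern with Ifng or with each other. Of 21 such target genes 16 were in the table, and limma called 9 higher and 0 lower in wild-type MII against wild-type spermatogonia (unadjusted p under 0.05 for the same number, 9), beside 29.8% of all genes called higher, with a median log2 difference of 1.16. Irf1, a transcription factor induced by interferon, was at 42.0 and 19.6 FPKM in wild-type MII, where Ifng was listed at 0, and at 4.74 and 5.83 FPKM in wild-type spermatogonia. Gbp5, a guanylate-binding protein, was at 5.33 and 3.74 FPKM against 0 and 0.6685 FPKM (2.08, SE 0.31, limma adjusted p = 0.000139). The 2 most abundant targets, chains of an MHC class II molecule, had higher means in wild-type spermatogonia and were not called. H2-Ab1 was at 59.6 and 100.6 FPKM in wild-type spermatogonia and at 43.8 and 60.5 FPKM in wild-type MII (−0.58, SE 0.51, limma adjusted p = 0.37). H2-Aa was at 40.5 and 72.1 FPKM against 38.3 and 44.7 FPKM (−0.38, SE 0.57, limma adjusted p = 0.616). In spermatogonia libraries of the 2 genotypes, where Ifng differed most, limma called 0 of the 16 and 2 had an unadjusted p under 0.05. There 9 had a higher and 7 a lower mean in Tex10 deficiency, with a median log2 difference of 0.14.

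**Figure D4:**
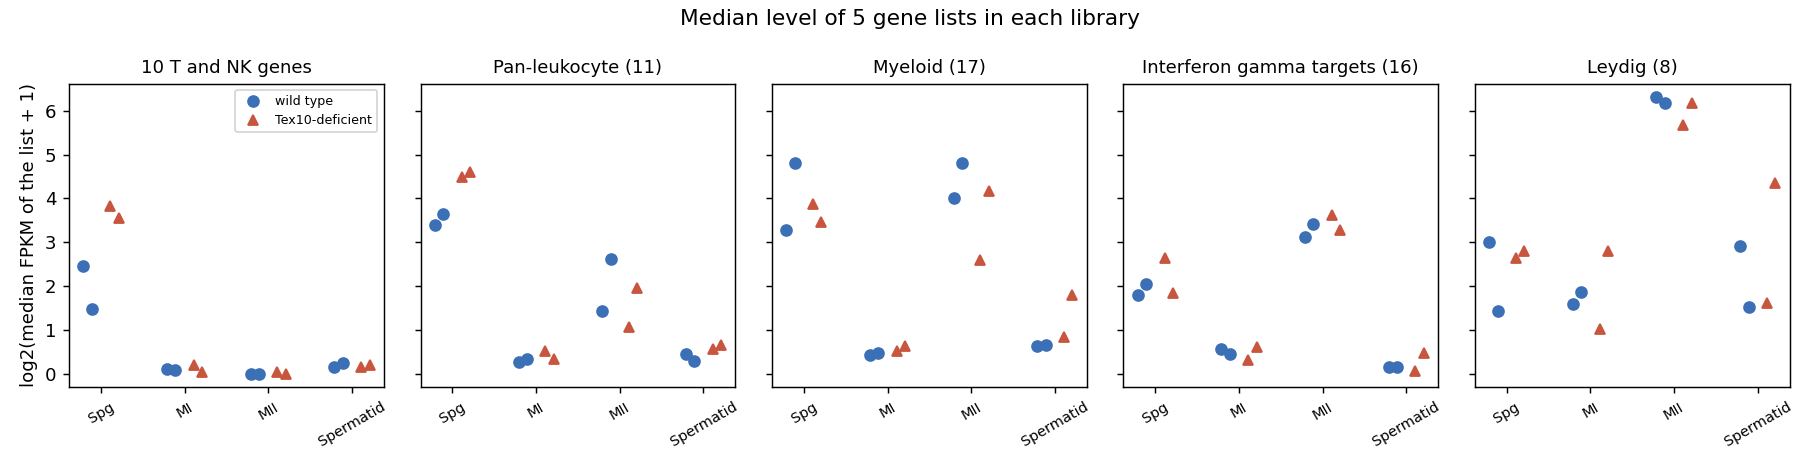
Median level of 5 gene lists in each library (vertical axis, log2 of the list's median FPKM plus 1; number of genes in parentheses), circles wild type and triangles Tex10-deficient. The 10 genes are high in spermatogonia libraries and lie near 0 in MII libraries, where the myeloid, interferon gamma target and Leydig lists are high.

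In spermatids the 10 genes split. Cd3g, Ifng, Gzmb, Il2rb, Icos and Ctsw stayed at 0.270 FPKM or less in each of the 4 libraries, and Ifng was listed at 0 in all of them. Ctla4 was at 3.30 and 5.66 FPKM in wild-type and at 2.52 and 4.25 FPKM in Tex10-deficient spermatids. Its wild-type spermatid level was thus above that of wild-type spermatogonia, while its neighbour Icos was at 0.0840 FPKM and 0 in wild-type and at 0 and 0.0501 FPKM in Tex10-deficient spermatids.

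Ms4a4b was at 1.58 and 6.33 FPKM in wild-type and at 2.76 and 4.55 FPKM in Tex10-deficient spermatids. Cd96 was at 2.16 and 1.94 FPKM in wild-type and at 1.23 and 1.74 FPKM in Tex10-deficient spermatids. Cd2 was at 0.714 and 1.49 FPKM in wild-type and at 1.56 and 1.69 FPKM in Tex10-deficient spermatids. These 4 genes had their lowest spermatid library above the highest of the 8 MI and MII libraries, as did 23.6% of all genes.

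From MII to spermatids, limma called these 4 of the 10 genes higher in the wild type, beside 38.8% of all genes, and the same 4 in Tex10 deficiency, beside 38.9%. Since the share called is near that of all genes, the count says nothing particular about the 10 genes. Ctla4 rose by 2.31 (SE 0.39, limma adjusted p = 0.000118) in the wild type and by 2.07 (SE 0.39, adjusted p = 0.000262) in Tex10 deficiency. Ms4a4b rose by 1.82 (SE 0.42, limma adjusted p = 0.00134) and by 2.19 (SE 0.42, adjusted p = 0.00028). Without the second wild-type spermatid library the rise of Ms4a4b was 1.06 (limma adjusted p = 0.0288).

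Cd96 rose by 1.48 (SE 0.33, limma adjusted p = 0.000961) in the wild type and by 1.28 (SE 0.33, adjusted p = 0.00277) in Tex10 deficiency. Cd2 rose by 1.05 (SE 0.39, limma adjusted p = 0.0268) and by 1.25 (SE 0.39, adjusted p = 0.0104). The Cd2 call in the wild type was lost without either MII library (limma adjusted p = 0.0776 and 0.0728) or without the second spermatid library (0.174). In Tex10 deficiency it was lost without the first MII library (0.0625). With MI spermatocytes as the reference in place of MII, a choice made after the values were seen, the count was also 4 in each genotype.

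The CD3 chains differed in spermatids. Cd3e was listed at 0 in both wild-type spermatid libraries and was at 0.151 and 0.157 FPKM in the Tex10-deficient ones, and Ptprc was at 0.193 to 0.560 FPKM over the 4 libraries. Cd247 was at 7.15 and 8.29 FPKM in wild-type and at 6.97 and 6.63 FPKM in Tex10-deficient spermatids, above each of these 4 genes in the same library. Some other genes of the other T and NK lists were abundant there. Stat4, a transcription factor of interleukin 12 signalling, was at 498 and 559 FPKM in wild-type and at 314 and 813 FPKM in Tex10-deficient spermatids, against 1.54 and 2.64 FPKM in wild-type spermatogonia. Prkcq, the kinase PKC theta of T cell receptor signalling, was at 43.6 and 33.6 FPKM in wild-type and at 18.4 and 46.8 FPKM in Tex10-deficient spermatids.

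Between genotypes, limma called 0 of the 10 genes in MI spermatocytes, in MII spermatocytes and in spermatids, and 0 had an unadjusted p under 0.05 in any of them. The shares called among all genes were 0.168%, 0.00763% and 0%. The differences of the 10 genes ran from −0.17 to 0.43 in MI, from −0.30 to 0.32 in MII and from −0.32 to 0.34 in spermatids, with an SE of 0.24 to 0.47 for each. In the average over these 3 cell types 0 of the 10 were called (0 at an unadjusted p under 0.05), beside 0.244% of all genes. An F test of whether the genotype effect differed among the 3 called 0 of the 10 (0 unadjusted), beside 0% of all genes.

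Most of these values say little, since at levels near 0 a difference cannot be seen on this scale. The 4 genes present in spermatids allow a comparison there. Ctla4 differed by −0.32 (SE 0.39) and Ms4a4b by 0.07 (SE 0.42), with overlapping groups and a limma adjusted p = 1 for each. Cd2 differed by 0.34 (SE 0.39, limma adjusted p = 1), with both Tex10-deficient libraries above both wild-type ones, as for 11.7% of all genes. Cd96 differed by −0.30 (SE 0.33, limma adjusted p = 1), with both below, as for 15.9%. None of these differences was larger than its error.

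Across the 16 libraries, the 10 genes correlated with each other to different degrees, from a Pearson r of 0.28 between Ctla4 and Icos to 0.99 between Gzmb and Il2rb, with a median of 0.87 over 45 pairs. These are descriptions over libraries that share cell type and genotype. Among 12436 other genes, the mean profile of the 10 was close to those of Thy1 (r = 0.986), Gzmc (0.968), Il18r1 (0.967), Il2rg (0.965), Samsn1 (0.963), Il23r (0.963) and Gimap4 (0.963). Cd3g was close to Cd226 (0.994) and Gzmc (0.988), and Ifng most like Cd226 (0.967), Thy1 (0.967) and Gzmc (0.965). Ctla4, looked up after its values were seen, was most like Camk4 (0.929), a calcium-dependent kinase at 3.96 and 3.64 FPKM in wild-type spermatids and at 2.30 and 1.73 FPKM in wild-type spermatogonia.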

How the data were processed

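Polyadenylated RNA was measured in 16 libraries, 8 groups of 2. Per the submitters' processing notes Cufflinks 2.2.1, STAR 2.7.6a, cutadapt, FastQC 0.10.1 and Trim Galore 0.6.3 were used, with the build mm10. The deposited table holds FPKM values to which 1 had been added by the authors, as read from the values, and the 1 was subtracted. For annotation, scaling and strand use the sources used here give nothing. Of 13101 genes, 1 with a letter in a cell was left out. Depth is unknown from FPKM, so no counting intervals are given.

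A gene was tested if 2 or more libraries reached 1 FPKM (13099 genes). The log2(FPKM + 1) values of the 8 groups entered 1 limma fit (version 3.58.1, R 4.3.3, lmFit and eBayes with trend), which had 8 residual degrees of freedom. For low genes, differences on this scale are smaller than the true fold changes. Adjusted p-values are Benjamini-Hochberg over all genes tested. Tables were made with Python 3.11.15 and pandas 2.3.3, figures with matplotlib 3.10.9. Tested on simulated data for wild-type MII minus MI (13099 genes, 200 changed), 78% of changes of log2 2 and 8% of log2 1 were recovered, with 6 false calls among 92. These rates were not split by level. They do not show how often a change would be recovered in genes as low as those followed here.

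The 10 genes and the gene lists were chosen with earlier results of these data known. Named were the 10 genes, Tex10, up to 4 genes a list (the 2 highest by mean FPKM and the 2 with the smallest p among those called) and the genes of most similar profile (8, and 3 each for Cd3g and Ifng, over genes reaching 5 FPKM). Of these, 1 gene is not reported here. Other named genes, such as Ptprc, Csf1r, Cd48, Pvr, Irf1 and Camk4, were chosen after their values were seen. Alternatives were other pseudocounts, filters, scalings, variance priors, weights, groupings, a replicate block, fewer libraries in the fit, and each library left out.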

Additional observations from a re-analysis of the deposited data

Results flagged for a closer look

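Cd96 had both Tex10-deficient libraries above both wild-type libraries in spermatogonia (log2 difference 1.365) and both below in MI spermatocytes (−0.079) and in spermatids (−0.302). The spermatogonia value belongs to the contrast that chose the gene, the MI levels were all at or under 0.119 FPKM, and the difference between the cell types was not tested.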

How the results depend on the processing

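With groups taken from the cell type field in place of the title, the number of the 10 genes called was 0 for wild-type MI against spermatogonia, 0 for wild-type MII against spermatogonia, 1 for wild-type spermatids against MII and 0 for Tex10-deficient spermatids against MII. There Cd2 changed sign in the last of these (−0.15), and the spermatogonia median log2 difference was 0.13. That grouping also places the Tex10-deficient libraries in other groups, which enter the shared spread, and the cause was not tested further. With each library left out in turn the counts ran from 8 to 9, 8 to 9, 3 to 4 and 3 to 4 in that order, and the spermatogonia median from 0.88 to 2.15. The genotype comparisons outside spermatogonia and MII against MI stayed at 0 calls under each alternative run. Deviations of same-numbered libraries correlated over 0.1 in all 6 pairs of wild-type groups (r from 0.143 to 0.358) and in 20 of 28 pairs of groups over both genotypes (−0.22 to 0.42). The labels do not say what the numbers share. A replicate block changed none of the calls given and left the counts at 9, 9, 4 and 4 and the spermatogonia median at 1.51, and a crossed pairing in spermatids, where r was −0.13 between genotypes, gave 0 calls. Of 396 values for single genes, 358 kept direction and side of the threshold, 37 lost the call and 1 changed sign. With a pseudocount of 5 the Cd2 rise in spermatids was not called in either genotype (limma adjusted p = 0.207 and 0.1), nor was the fall of Ifng (0.107 in MI and 0.113 in MII). Array weights lost the Cd2 call in the wild type (0.0557), and a fit of only the libraries compared lost that of Icos in MII (0.0573). Quantile normalization moved the median of all genes in wild-type MII against spermatogonia from 0.23 to −0.16. Low levels and unknown read numbers limit what can be said of values near 0.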
